A study of Homo sapiens with 4 samples.

Results

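Transcripts of the insulin and insulin-like growth factor (IGF) signalling pathway were examined in HEK293 cells, a long-established line from human embryonic kidney, on 4 single-colour Affymetrix arrays. The set is a list of 38 gene names and is made up of every probe set that GEO's platform annotation assigns to exactly 1 of these genes. This gave 116 of the 41091 probe sets with 1 gene, and 35 of the 38 genes. For IGF2, PIK3CA and PIK3R2 no such probe set was found, and they were not analysed here. Cells were kept for 7 days in DMEM with 10 % FCS that held either 450 mg/dl glucose (high glucose, 2 arrays) or 100 mg/dl glucose (low glucose, 2 arrays), and the question of the comparison is which transcripts differ between these concentrations. Arrays of a group are labelled as biological replicates, with no word on separate cultures, so p-values measure only the spread between these arrays, which may be technical.

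Insulin and the IGFs bind receptor tyrosine kinases at the cell surface, while secreted IGF-binding proteins hold the IGFs in the medium and change how much of them reaches a receptor. Active receptors phosphorylate docking proteins of the IRS, SHC and GAB families, which recruit PI3-kinase and, through GRB2 and SOS1, the Ras pathway. PI3-kinase products recruit PDPK1 and AKT, and AKT restrains the kinases GSK3A and GSK3B and keeps FOXO transcription factors out of the nucleus. Active FOXO proteins in turn switch on genes that include INSR and IRS2, so the pathway carries a feedback loop at the level of transcription.

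The deposited values are signals on a linear scale, and the mean signal trimmed by 2 percent at each end was 200.02 on each of the 4 arrays. Replicate arrays correlated with r = 0.990 in high and r = 0.989 in low glucose over 12242 measured genes, which are not independent replicates, while pairs of a high and a low glucose array had r from 0.928 to 0.931. Of 13 transcripts fixed as HEK293 markers, 9 were measured. Of these 4 were higher in high glucose, KRT8, KRT18, CDH2 and LHX1, and 3 were lower, VIM, ENO2 and EYA1, and their list summed to between 22383 and 25152 in high and between 21016 and 21248 in low glucose. NEFM, STMN2 and INA were below the filter signal of 32.9. Markers of blood cells (3 of 3), hepatocytes (4 of 4) and cervical epithelium (2 of 2) with a probe set were below that filter. Hepatocyte markers summed to between 58.3 and 72.7 in high and between 103.8 and 104.0 in low glucose, blood markers to between 17.4 and 53.4 and between 16.5 and 54.6, and cervical ones to between 5.43 and 14.8 and between 9.63 and 11.7. Of 3 endothelial markers PECAM1 was measured and did not pass, and the list summed to between 59.1 and 81.5 in high and between 67.8 and 70.6 in low glucose. By contrast, the fibroblast genes COL1A1 and COL3A1 were measured and higher in high glucose, by 0.55 and 1.08 log2 units. The fibroblast markers with a probe set, 7 of 7, summed to between 543 and 561 in high and between 355 and 422 in low glucose, while DCN, LUM, PDGFRB, THY1 and COL1A2 were below the filter. Their part in the results was not tested. The 24 probe sets for bacterial poly-A transcripts, spiked into the RNA ahead of labelling, gave higher signals in high glucose by a median of 1.94 log2 units (3.84-fold), and the 6 ribosomal RNA probe sets by a median of 1.73 (3.31-fold), with array medians of 202 and 294 in high against 67.4 and 76.3 in low glucose. The part of these controls in the results was not tested. The 18 hybridisation controls had a median of 486 on high glucose replicate 1 against 869 to 891 on the other arrays. A difference in labelling between the groups and an effect of glucose cannot be told apart.

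Most of the pathway was measured, and its genes moved in both directions. A gene counts as measured when a probe set had a mean log2 signal at or above that of a signal of 32.9, the median of all probe sets, and is represented by its brightest such probe set. Of the 34 measured genes, 15 were lower and 8 higher in high glucose at an adjusted p under 0.05 (limma, Benjamini-Hochberg adjustment over all 12242 genes), and 11 did not pass. Across all measured genes 33.3% were lower and 24.3% higher, and 57.6% were called in either direction, beside 44.1% lower, 23.5% higher and 67.6% in either direction among the pathway genes. In a bulk sample, a lower signal from fewer cells of a kind and one from less RNA per cell cannot be told apart. Changes of at least 1.5-fold were found for 10 lower and 5 higher genes, against a background of 19.3% and 10.8%. The median log2 difference was -0.17 for the 34 genes and -0.10 for all genes. Signals of the groups did not overlap for 30 of the 34 genes, which was also so for 79.8% of all genes. After centring each array on the median of its kept probe sets the split was 12 lower and 10 higher. Over all genes it was 3369 lower and 3542 higher. After centring on the median of all probe sets, a setting added after the data were seen, the pathway split was 11 lower and 13 higher. The median of all genes then moved from -0.10 to 0.07. Under that setting 58.8% of the called genes were higher over all genes and 54.2% in the pathway. Without high glucose replicate 1 the counts were 13 lower and 10 higher.

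**Figure D1:**
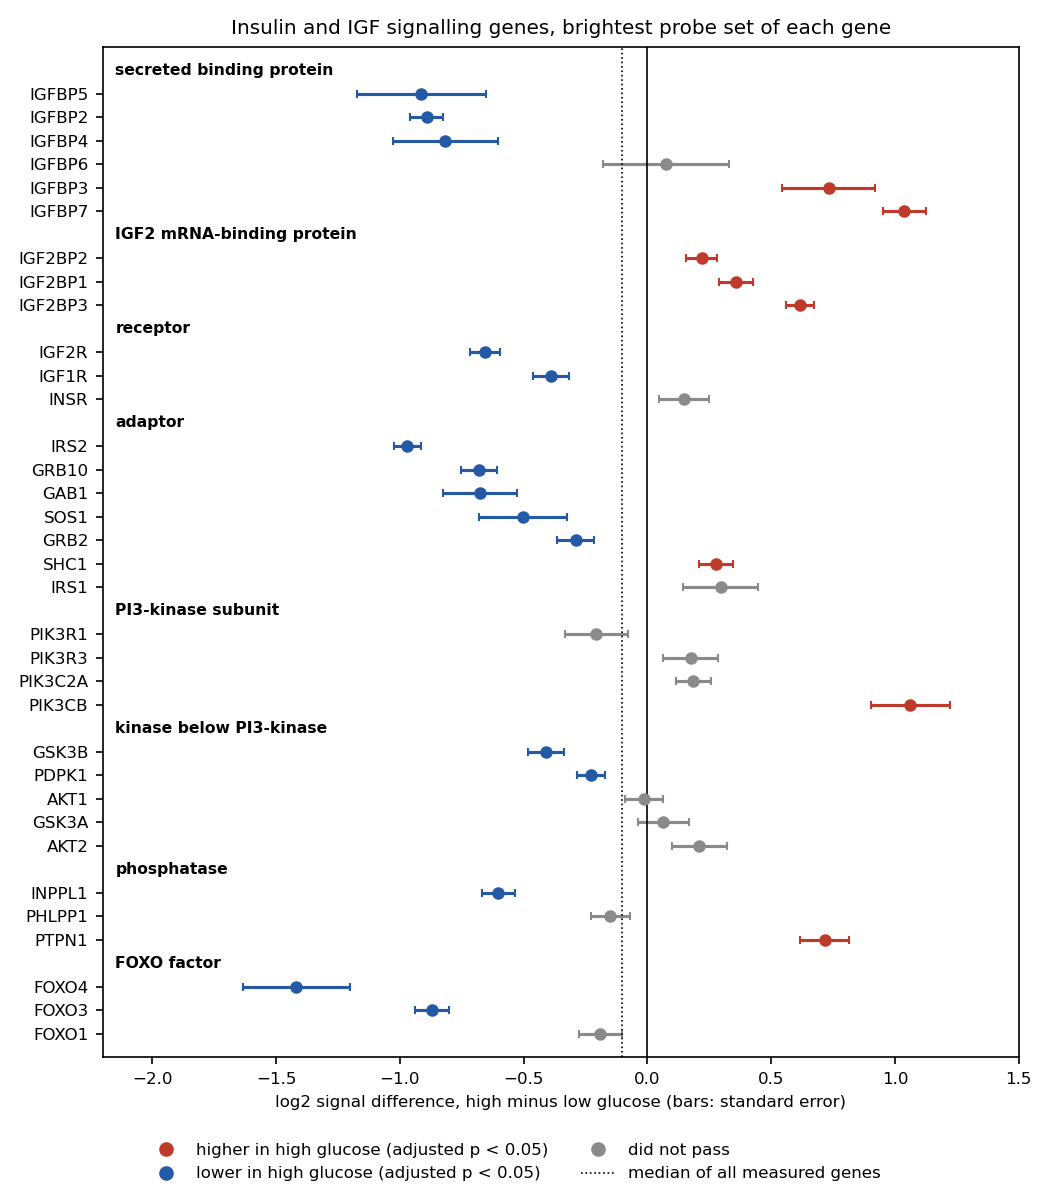
Log2 signal difference of each of the 34 measured genes between high and low glucose (horizontal axis), grouped by role, with the brightest probe set as a point and the standard error of the fit as a bar. The 15 lower genes lie left of zero and reach -1.42 in FOXO4, the 8 higher genes reach 1.06 in PIK3CB, and the dotted line marks the median of all genes at -0.10.

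The secreted binding proteins split into falling and rising members. IGFBP2, IGFBP4 and IGFBP5 fell in high glucose and IGFBP3 and IGFBP7 rose, while IGFBP6 did not pass. IGFBP2, which binds IGF1 and IGF2 and inhibits IGF action in many settings, had signals of 431 and 418 in high against 793 and 783 in low glucose. Both high glucose values lay well under both low glucose values, and the gene fell 1.86-fold (log2 difference -0.89 ± 0.07, the standard error of the fit; adjusted p = 3.1e-05). IGFBP7, a matrix-associated protein of the superfamily that binds IGFs weakly, stood at 2355 and 2623 in high and at 1122 and 1305 in low glucose. It rose 2.05-fold (log2 difference 1.04 ± 0.09, adjusted p = 5.6e-05), and its other kept probe set rose 2.28-fold, from 970 and 1000 in low to 2283 and 2204 in high glucose.

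IGFBP3, the main IGF carrier of serum, was dim, at 118 and 149 in high against 80.4 and 79.6 in low glucose, and rose 1.66-fold (adjusted p = 0.012). Its other probe set also rose, from 52.2 and 19.4 to 84.3 and 84.6. IGFBP4, which is known mainly as an inhibitor of IGF action, fell from 105 and 98.6 in low to 52.2 and 63.7 in high glucose (adjusted p = 0.013). IGFBP5, a matrix-binding member, fell from 136 and 88.8 to 52.6 and 64.5 (adjusted p = 0.019). Its further 5 probe sets were below the filter. These 3 calls depended on single arrays. IGFBP3 did not pass without high glucose replicate 2 (adjusted p = 0.089), and IGFBP4 and IGFBP5 did not pass without high glucose replicate 1 (adjusted p = 0.062 and 0.087) or low glucose replicate 1 (adjusted p = 0.058 and 0.12). IGFBP6, which prefers IGF2, stood at 53.9 and 52.5 in high and 55.0 and 46.3 in low glucose, and these values overlap.

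The 3 genes for IGF2 mRNA-binding proteins, oncofetal proteins that bind IGF2 mRNA and many other transcripts and control their translation and stability, were higher in high glucose in their brightest probe sets. IGF2BP3 rose 1.53-fold, from 935 and 916 in low to 1388 and 1449 in high glucose (log2 difference 0.62 ± 0.06, adjusted p = 8.9e-05). A further IGF2BP3 probe set rose by 0.26 log2 units and the last stood at 0.04 and did not pass. IGF2BP1 rose by 0.36 log2 units as read by its brightest probe set, from 446 and 436 to 559 and 571 (adjusted p = 0.0033). Its dimmer probe sets rose by far more. One went from 18.1 and 23.8 in low to 141 and 180 in high glucose (7.70-fold), and the other from 30.7 and 24.2 to 118 and 121 (4.39-fold). The low glucose signals of both lie below the filter signal, so these folds rest on dim values. In its brightest probe set IGF2BP2 rose by 0.22 log2 units (2242 and 2443 against 2004 and 2017, adjusted p = 0.019) and fell in the other, from 83.2 and 100 in low to 56.4 and 41.1 in high glucose. With the mean of both it was called lower (log2 difference -0.35, adjusted p = 0.014). The IGF2BP2 rise was lost when high glucose replicate 2 (adjusted p = 0.087), low glucose replicate 1 (0.073) or low glucose replicate 2 (0.063) was left out.

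Among the receptors, IGF2R showed the plainest change. This receptor also carries mannose 6-phosphate ligands to lysosomes and clears IGF2 from the medium. It fell 1.58-fold (log2 difference -0.66 ± 0.06, adjusted p = 9.2e-05), with 941 and 885 in high and 1406 and 1470 in low glucose, and its second kept probe set fell from 553 and 604 to 398 and 413. INSR, the insulin receptor, had a brightest probe set that did not pass, with 412 and 348 in high and 348 and 336 in low glucose. Of its 4 dimmer probe sets 2 fell. The larger fall was from 314 and 299 in low to 154 and 158 in high glucose (1.97-fold, log2 difference -0.98, adjusted p = 2.8e-04 over probe sets), and the smaller one was by 0.40 log2 units. When only probe sets without the suffixes _s_at and _x_at, which can match several transcripts, were used, INSR was therefore called lower. After centring on all probe sets its brightest probe set was called higher (log2 difference 0.32, adjusted p = 0.030). IGF1R, the receptor for both IGFs, gave opposite results in different probe sets and is described with the other genes whose probe sets disagree.

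IRS2, a docking protein that links both receptors to PI3-kinase, fell in both of its probe sets. Its brightest probe set read 1821 and 1758 in high and 3503 and 3504 in low glucose, a fall of 1.96-fold (log2 difference -0.97 ± 0.06, adjusted p = 1.2e-05). The second read 418 and 555 in high and 1475 and 1464 in low glucose, a fall of 3.05-fold. In both probe sets each high glucose value was lower than each low glucose value by a wide margin. IRS1, its close relative, did not pass, with 138 and 140 in high and 117 and 110 in low glucose (log2 difference 0.30 ± 0.15, adjusted p = 0.13). It passed as higher after quantile normalization (adjusted p = 0.041), after cyclic loess (0.046), after centring on all probe sets (0.028) and with no intensity trend (0.036).

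IRS4, a docking protein first studied in HEK293 cells, was below the filter in both of its probe sets. One read 25.9 and 21.8 in high and 45.3 and 40.8 in low glucose, and the other 5.72 and 6.37 in high and 49.0 and 47.7 in low glucose. Both were lower on the high glucose arrays, without overlap. With no filter the second passed (log2 difference -3.00 ± 0.56, adjusted p = 0.0075, limma over all probe sets) and the first did not (adjusted p = 0.15). Signals as low as these are not shown to be above background.

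Of the remaining adaptors, GRB10 and GAB1 fell, GRB2 and SOS1 fell by calls that other settings did not keep, and SHC1 rose. GRB10, which binds the insulin and IGF1 receptors and dampens their signal, went from 901 and 979 in low to 611 and 562 in high glucose (1.60-fold, adjusted p = 1.9e-04). Its 3 other probe sets, at -0.22, -0.26 and -0.09 log2 units, did not pass. GAB1, a scaffold for PI3-kinase and the phosphatase PTPN11, went from 175 and 178 to 103 and 118 (1.60-fold, adjusted p = 0.0060), and a second probe set fell by 0.83 log2 units. The other kept GAB1 probe sets, at -0.61 and -0.09 log2 units, did not pass. SHC1, the adaptor that leads to Ras, rose from 801 and 886 to 1024 and 1017 (log2 difference 0.28 ± 0.07, adjusted p = 0.0093). Its other probe set stood at 0.05 and did not pass, and with the mean of both the call was lost (adjusted p = 0.096).

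SOS1, the exchange factor that loads Ras with GTP, had 353 and 234 in high and 428 and 388 in low glucose (log2 difference -0.50 ± 0.18, adjusted p = 0.043). The high glucose arrays were far apart. The call was kept in 5 of 15 alternatives, and without high glucose replicate 2 the difference was -0.21 (adjusted p = 0.18). It was also lost without low glucose replicate 1 (adjusted p = 0.13) or 2 (0.058). Its 3 other probe sets stood between 0.03 and 0.29 and did not pass. GRB2, the adaptor that brings SOS1 to receptors, fell by 0.29 log2 units (brightest probe set, adjusted p = 0.013). Leaving out high glucose replicate 2 (adjusted p = 0.065) or low glucose replicate 2 (0.061) ended this call, as did median centring (0.072).

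Promoter sequence was compared for this family because several genes fell or rose together. The 250 bases before the gene start were read from RefSeq on GRCh38.p14 for 34 of the 38 genes and not for IGF2, IGF2BP1, IGFBP7 and GAB1. Motifs searched on both strands were GTAAACA, the core bound by FOXO factors, TGATGNAA, a C/EBP-ATF element, and CACGTG, the E-box bound by MondoA, MYC and related factors, and no window of the 34 held more than 1 of the motifs. GTAAACA was found in 2 of the 34 windows, PIK3CA and IGFBP6, against 2.98% of all 35116 windows, and TGATGNAA in 0 of the 34, against 3.14%. CACGTG was found in IGF2R, which fell, and in IGF2BP3, which rose, against 6.34% of all windows. The 2 windows with an E-box are shown with IRS2, an adaptor that fell, in which none of the motifs was found; capitals mark CACGTG.
IGF2R: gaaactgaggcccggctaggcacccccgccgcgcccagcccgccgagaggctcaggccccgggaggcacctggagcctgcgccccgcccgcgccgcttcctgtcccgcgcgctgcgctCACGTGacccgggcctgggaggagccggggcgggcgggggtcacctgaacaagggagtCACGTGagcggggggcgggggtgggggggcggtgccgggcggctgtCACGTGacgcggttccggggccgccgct
IGF2BP3: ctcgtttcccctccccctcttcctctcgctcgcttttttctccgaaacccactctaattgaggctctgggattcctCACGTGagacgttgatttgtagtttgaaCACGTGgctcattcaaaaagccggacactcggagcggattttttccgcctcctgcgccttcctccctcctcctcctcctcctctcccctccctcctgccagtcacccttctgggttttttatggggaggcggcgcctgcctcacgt
IRS2: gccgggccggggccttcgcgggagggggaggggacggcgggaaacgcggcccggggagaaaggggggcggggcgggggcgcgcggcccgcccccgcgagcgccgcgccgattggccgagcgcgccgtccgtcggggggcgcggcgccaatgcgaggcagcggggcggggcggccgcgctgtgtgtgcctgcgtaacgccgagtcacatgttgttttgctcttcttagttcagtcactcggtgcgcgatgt
The IGF2R window is chr6:159968832-159969081 on the plus strand, the IGF2BP3 window chr7:23470492-23470741 on the minus strand and the IRS2 window chr13:109786584-109786833 on the minus strand, each written 5′ to 3′ towards the gene. IGF2R holds 3 copies, starting at -132, -74 and -28 from the gene start, and IGF2BP3 holds 2, starting at -174 and -146. A match describes the letters only, and these values say nothing of binding.

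PI3-kinase subunits went mostly without a call in their brightest probe sets. PIK3CB, a catalytic subunit, rose 2.09-fold, from 205 and 147 in low to 367 and 359 in high glucose (log2 difference 1.06 ± 0.16, adjusted p = 8.9e-04). The poly-A spikes differed in the same direction by more, 3.84-fold. The PIK3CB rise was the largest among the brightest probe sets of the pathway genes, and the part of the spikes in it was not tested. The 2 dimmer probe sets of IGF2BP1 rose by more than the spikes, from low glucose signals below the filter signal. PIK3R1, the main regulatory subunit, did not pass in its brightest probe set (160 and 153 in high, 175 and 186 in low glucose). A second PIK3R1 probe set fell 2.05-fold, from 190 and 191 to 92.0 and 93.9, and PIK3R1 was called lower, at -1.04, when _s_at probe sets were left out. PIK3R3, another regulatory subunit, had 437 and 546 in high and 421 and 445 in low glucose, which overlap. Without high glucose replicate 1 this difference passed as higher (log2 difference 0.34, adjusted p = 0.031). A dimmer PIK3R3 probe set rose 2.62-fold, from 37.7 and 35.0 to 86.6 and 105. PIK3C2A, a class II enzyme of the family, just missed the threshold in its brightest probe set (log2 difference 0.19 ± 0.07, adjusted p = 0.056). Leaving out high glucose replicate 2 (adjusted p = 0.047) or low glucose replicate 1 (0.032) brought it past the threshold, as did median centring (0.012) and the stricter filter (0.046).

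Of the 5 kinases below PI3-kinase, PDPK1 and GSK3B fell and AKT1, AKT2 and GSK3A did not pass. AKT1 read 678 and 652 in high and 713 and 633 in low glucose, with overlap and a log2 difference of -0.01 ± 0.08. AKT2, the isoform best known for glucose uptake, read 695 and 898 in high against 685 and 681 in low glucose and did not pass (adjusted p = 0.14). High glucose replicate 2 alone stood apart here, and without high glucose replicate 1 AKT2 was called higher, at 0.39 log2 units (adjusted p = 0.0076). Without _s_at and _x_at probe sets AKT2 was called lower, at -0.40. PDPK1, which phosphorylates AKT, fell by 0.23 log2 units, from 1188 and 1197 to 1009 and 1029 (adjusted p = 0.0091), and did not pass after median centring (adjusted p = 0.089). Of its 3 dimmer probe sets 1 fell, by 0.56 log2 units. GSK3A stood at 0.06 ± 0.10 and did not pass. GSK3B fell by 0.41 log2 units, from 1031 and 962 in low to 786 and 715 in high glucose (brightest probe set, adjusted p = 0.0020), and did not pass with the mean of its probe sets (log2 difference -0.15, adjusted p = 0.18).

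Of the phosphatases that oppose the pathway, PTPN1 rose and INPPL1 fell. PTPN1, the tyrosine phosphatase that acts on the insulin receptor, went from 219 and 248 in low to 386 and 380 in high glucose (1.64-fold, log2 difference 0.72 ± 0.10, adjusted p = 6.6e-04). INPPL1, the lipid phosphatase SHIP2, which removes a product of PI3-kinase, went from 691 and 676 to 454 and 447 (1.52-fold, log2 difference -0.60 ± 0.07, adjusted p = 2.0e-04). Neither gene had overlapping groups. PHLPP1, which dephosphorylates AKT, read 378 and 392 in high and 441 and 414 in low glucose and did not pass (adjusted p = 0.14).

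**Figure D2:**
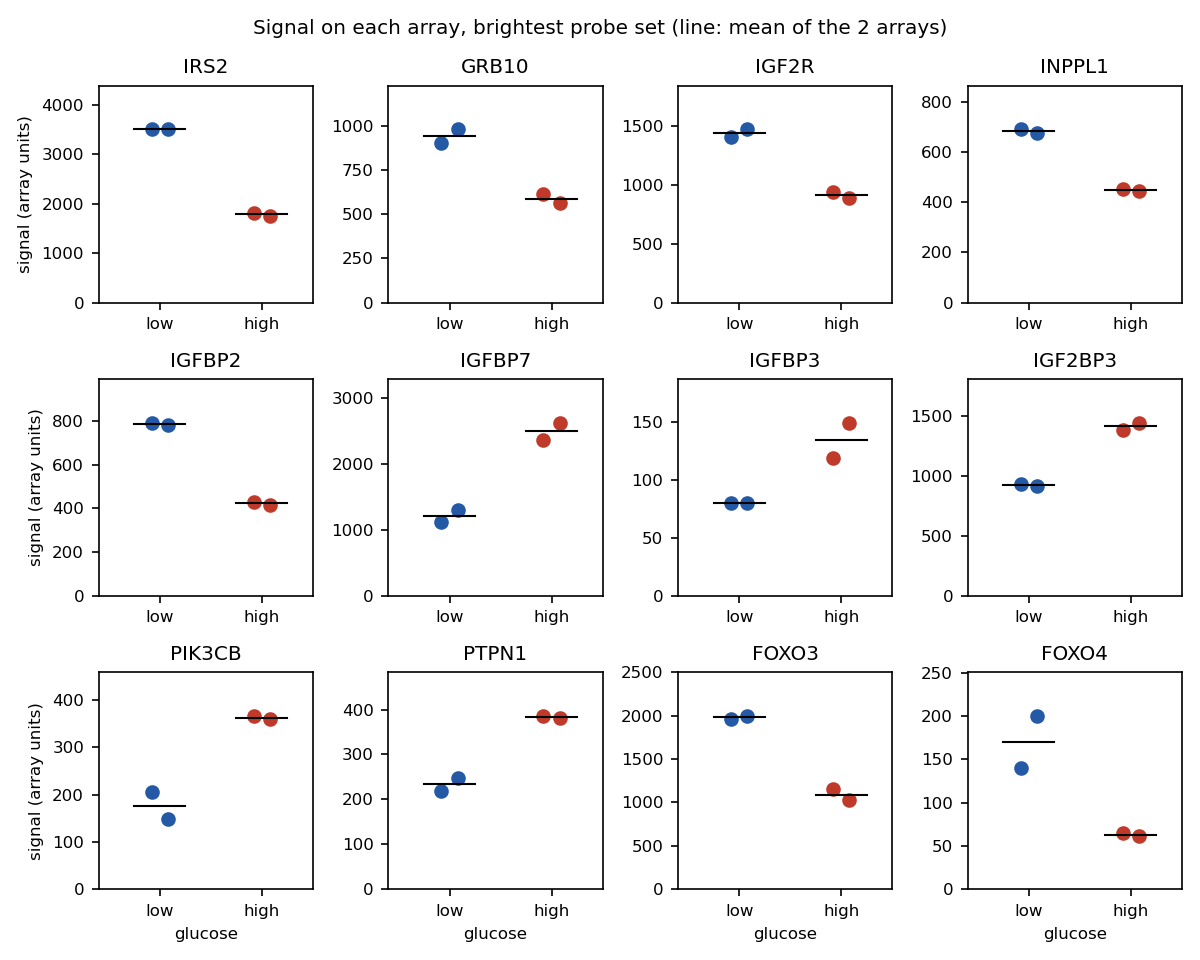
Signal on each array (vertical axes, array units, starting at 0) of 12 genes in low and high glucose, with the mean of the 2 arrays as a line. IRS2 falls from 3503 and 3504 to 1821 and 1758 and IGFBP7 rises from 1122 and 1305 to 2355 and 2623. The 12 genes were picked from those called, and in none of the panels do the groups overlap. The same held for 79.8% of all measured genes.

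FOXO transcripts were lower in high glucose for 2 of the 3 genes measured. FOXO3 read 1968 and 2000 in low and 1150 and 1025 in high glucose, a fall of 1.83-fold (log2 difference -0.87 ± 0.07, adjusted p = 4.3e-05). Its 2 other kept probe sets also fell, by 0.49 and 0.40 log2 units. A further FOXO3 probe set was below the filter and went the other way, with 49.7 and 68.7 in high and 13.4 and 20.0 in low glucose (adjusted p = 0.017 with no filter). FOXO4 fell from 140 and 200 to 64.4 and 60.8 (2.67-fold, log2 difference -1.42 ± 0.22, adjusted p = 0.0010), and rests on 1 probe set. FOXO1 read 296 and 289 in high and 340 and 328 in low glucose and did not pass (log2 difference -0.19 ± 0.09, adjusted p = 0.10). FOXO6, a family member outside the 38 genes, belongs to the list of 106 further pathway genes and is named after its value was seen. It fell 3.02-fold, from 453 and 476 to 173 and 137, in a probe set of the _x_at type that can also match other transcripts.

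Genes reported as FOXO targets were described from a list of 47, of which 39 were measured and 3, INSR, IRS2 and PIK3CA, belong to the pathway set itself. Of the 39, 21 fell and 9 rose, with a list median of -0.42 log2 units against -0.10 over all genes, where 33.3% of genes were lower and 24.3% higher. After centring on all probe sets 19 fell and 12 rose. Of the called genes of the list 38.7% were then higher, beside 58.8% over all genes. CDKN1A, the cell cycle inhibitor p21, fell 3.87-fold (2548 and 2437 in low, 628 and 660 in high glucose). SESN2, a stress-induced regulator of nutrient signalling, fell 2.95-fold, GADD45A, a stress and DNA damage gene, 2.17-fold, and MAP1LC3B, an autophagy protein, 2.05-fold. CCND1, cyclin D1, which FOXO factors are reported to repress, rose 3.79-fold, from 232 and 210 to 796 and 880. The other genes that rose were CITED2, TXNIP, PRDX3, SOD2, GADD45B, ATG12, GABARAPL1 and CAT, by 0.32 to 1.27 log2 units. They are named after their values were seen. Several genes of the list, CDKN1A, SESN2 and GADD45A among them, also answer to p53 or to ATF4, so the list is not specific to FOXO. It also mixes genes reported as activated and as repressed, so its counts and median do not give 1 direction of FOXO activity.

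**Figure D3:**
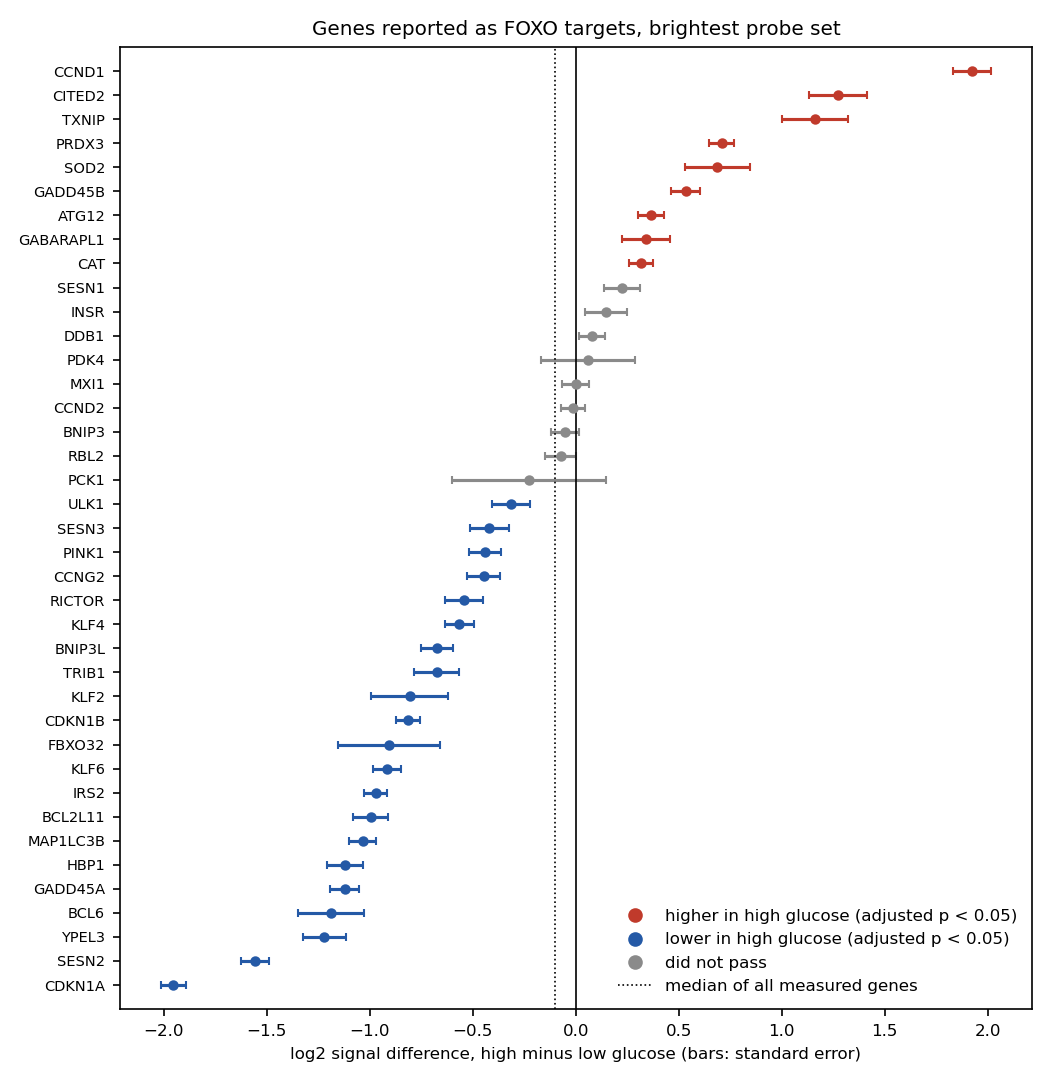
Log2 signal difference between high and low glucose (horizontal axis, with the standard error as a bar) of the 39 measured genes reported as FOXO targets, in order of size. The 21 lower genes run down to -1.95 in CDKN1A, the 9 higher genes up to 1.92 in CCND1, and the dotted line is the median of all genes at -0.10.

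Agreement between probe sets of a gene was examined because several pathway genes are read by more than 1. Of the 86 kept probe sets of the pathway genes, 20 were higher and 29 lower in high glucose, and so 49 were called, where over all 27307 probe sets 23.1% were higher, 27.2% lower and 50.4% called. Of the 24 genes with 2 or more kept probe sets, 6 had every kept probe set called in the same direction, which was so for 20.9% of the 6255 such genes on the array. FOXO3, IGF2R and IRS2 were lower and IGF2BP1, IGFBP3 and IGFBP7 higher. The dimmer IGF2BP1 probe sets were below the filter signal in low glucose and were kept through their high glucose signals. The dimmer IGFBP3 probe set read 52.2 and 19.4 in low glucose. Agreement in these genes is therefore not independent of the filter. In 5 genes, IGF1R, GSK3B, GRB2, IGF2BP2 and PIK3C2A, probe sets were called in opposite directions, against 8.87% of genes on the array. The test of the difference itself compared the change of 2 probe sets within each array, over 18264 pairs of all genes. It was fitted in limma with no intensity trend and with Benjamini-Hochberg adjustment. Of 101 pairs of the pathway genes, 24 differed in their change, against 17.1% of all pairs, and these lay in 11 of the 24 genes, against 26.1% of genes. This comparison was added after the values were seen. A gene with more pairs has more chances to show a split. The pathway genes gave 101 pairs in 24 genes and all genes 18264 pairs in 6255. The shares of genes are therefore not like for like, and the part of this in the counts was not tested.

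IGF1R showed the split most plainly. Its brightest probe set fell from 854 and 832 in low to 681 and 609 in high glucose (log2 difference -0.39 ± 0.07, adjusted p = 0.0028), and its dimmest kept one fell from 147 and 130 to 84.9 and 81.0. The 2 others rose together, 1.79-fold and 1.81-fold, one from 374 and 356 to 681 and 625 and the other from 371 and 349 to 644 and 657. No values of the groups overlapped in any of the 4. The brightest probe set differed from the 2 rising ones by 1.23 and 1.24 log2 units (both adjusted p under 0.05, at 0.017 and 0.018). IGF1R had opposite calls in each of the 14 alternatives that keep probe sets apart. The direction of total IGF1R mRNA is therefore not given by these probe sets, and with their mean the gene stood at 0.14 and did not pass.

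GSK3B was similar. The probe sets at 1031 and 962 and at 239 and 231 in low glucose fell by 0.41 and 0.53 log2 units, and another rose 1.92-fold, from 239 and 247 to 466 and 468. The rising one differed from the brightest by 1.35 log2 units (adjusted p = 0.017). In GRB2 the brightest probe set fell from 1109 and 1271 to 990 and 951 and the second rose 1.74-fold, from 425 and 435 to 767 and 727, a difference of 1.09 log2 units (adjusted p = 0.020). In PIK3C2A 1 probe set rose 2.01-fold, from 75.5 and 85.1 to 164 and 159, a brighter one rose by 0.25 log2 units (adjusted p = 0.020 over probe sets), and 1 fell by 0.26. In AKT2 a dim probe set fell from 82.8 and 92.3 to 38.1 and 41.2, and differed from the brightest by 1.35 log2 units (adjusted p = 0.018). The table used here does not place the probe sets on the transcripts, so whether they read different transcript forms was not tested. The count of 5 genes was 3 after quantile normalization, 2 without high glucose replicate 2, 3 without low glucose replicate 1 and 3 without low glucose replicate 2.

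**Figure D4:**
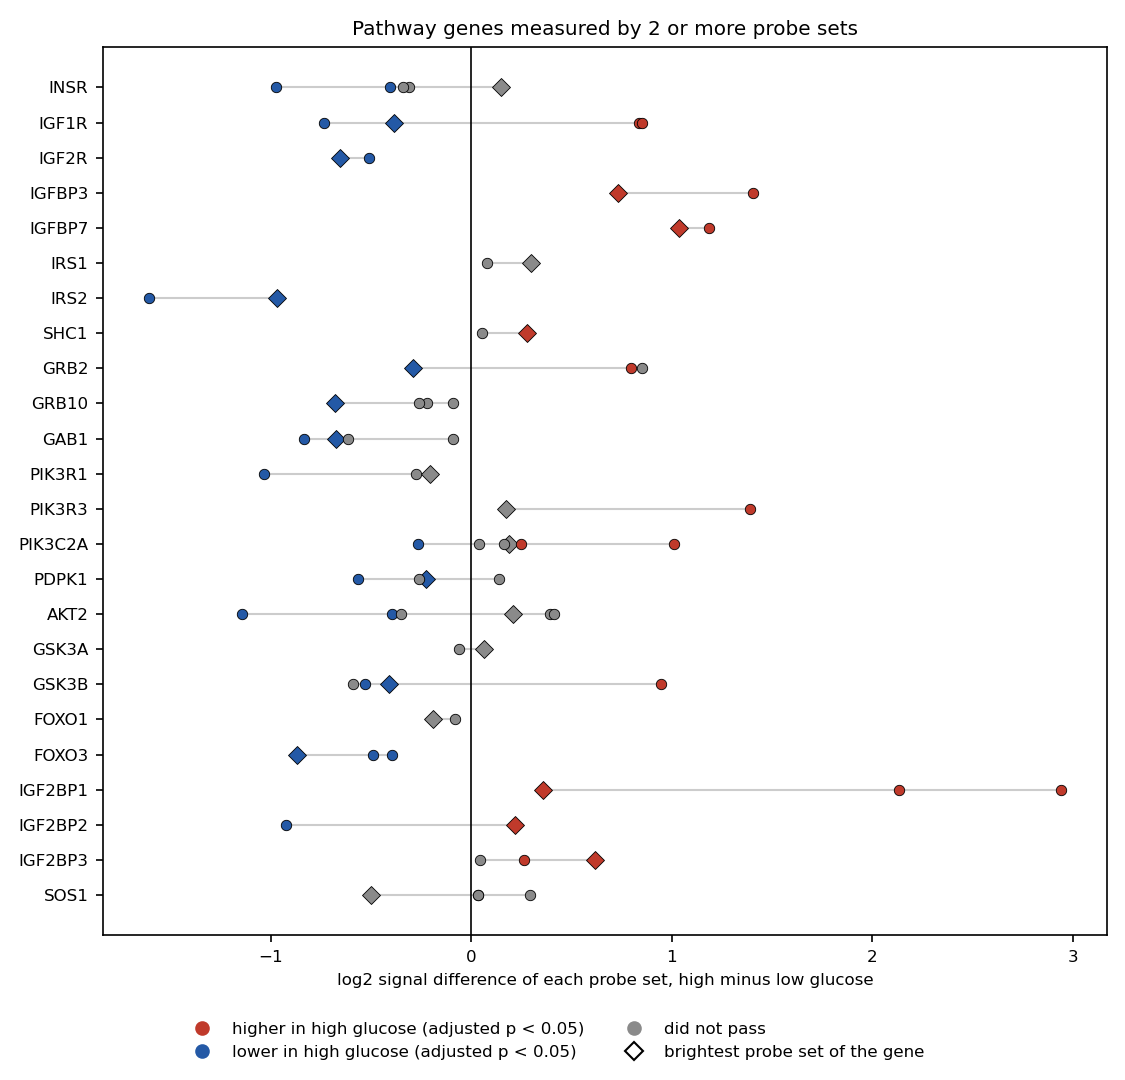
Log2 signal difference between high and low glucose (horizontal axis) of each kept probe set of the 24 genes read by 2 or more, with the brightest as a diamond and a grey line joining the probe sets of a gene. In IGF1R, GSK3B, GRB2, IGF2BP2 and PIK3C2A red and blue points lie on either side of zero, while in FOXO3, IGF2R, IRS2, IGF2BP1, IGFBP3 and IGFBP7 all points have 1 colour.

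Further genes of the pathway were read from a list of 106, of which 78 were measured, 11 were below the filter and 17 had no probe set that names 1 gene. Of the 78, 29 fell and 18 rose in high glucose, with a median of -0.12 log2 units beside -0.10 for all genes, so that the list sat close to the background of 33.3% lower and 24.3% higher. After centring on the kept probe sets 24 fell and 26 rose, and after centring on all probe sets 23 fell and 30 rose. Of the called genes of the list 52.0% and 56.6% were then higher, beside 51.3% and 58.8% over all genes. The 6 genes with the smallest p were TRIB3, SHC2, FOXK2, HTRA1, HRAS and INPP5D. TRIB3, a pseudokinase that binds AKT and is induced by stress, fell 14.5-fold, from 7181 and 7672 in low to 471 and 558 in high glucose. SHC2, an adaptor related to SHC1, fell 7.17-fold, from 1173 and 1095 to 155 and 161. INPP5D, the lipid phosphatase SHIP1, fell from 204 and 192 to 15.8 and 19.9, a level below the filter signal. It was therefore kept through its low glucose signals. FOXK2, a forkhead factor under insulin control, fell 2.32-fold, but stood at -0.19 and did not pass with the mean of its probe sets. HTRA1, a secreted protease that cleaves IGF-binding proteins, fell 2.10-fold, from 1037 and 958 to 482 and 468. HRAS, a Ras protein, rose 1.82-fold, from 1408 and 1366 to 2625 and 2437.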

How the data were processed

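The authors deposited 1 signal intensity per probe set and array, on a linear scale. GCOS, software from Affymetrix, is named in the submitters' processing notes with no version; no source used here gives further steps. Trimmed means were equal on the 4 arrays, so the authors' scaling hides a change shared by most transcripts. The number of arrays limits the precision.

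Of 54675 probe sets, 41097 had 1 gene in GEO's platform annotation, of which 41043 were matched in RefSeq by gene identifier. Leaving out the 62 controls left 41091 with 1 gene. Signals were log2-transformed with no pseudocount, and 27307 probe sets with a mean log2 signal at or above the median (signal 32.9) were kept. The brightest probe set stood for a gene. The groups were fitted in limma 3.58.1 under R 4.3.3 (lmFit, eBayes with an intensity trend, no covariate), two-sided, with Benjamini-Hochberg adjustment over 12242 genes or 27307 probe sets. Differences between probe sets of 1 gene were fitted with no intensity trend. The fits were tested on simulated data. Errors beside log2 differences are standard errors.

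The 38 genes and the lists were chosen with earlier results of these data known. Every gene of the set may be named, as may the 6 genes with the smallest p of each further list. FOXO6, the further FOXO targets named as having risen, COL1A1, COL3A1 and other markers fall outside this rule. Alternatives covered normalization, filter, pseudocount, probe set choice, variance prior, a replicate block and leaving out each array. With 1 array left in a group, it is assumed to vary like the other group.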

Additional observations from a re-analysis of the deposited data

Results flagged for a closer look

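The 24 poly-A spike probe sets, which are not part of the gene comparison, had median signals of 151 and 139 on the high glucose arrays and 38.1 and 44.1 on the low glucose arrays. Their median log2 difference was 1.94, and all 24 separated the groups. They stand here because a signal outside the genes was higher in high than in low glucose. Its part in the differences of the pathway genes was not tested.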

How the results depend on the processing

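Under the 15 alternatives, 13 of the 23 called genes kept their call wherever a value could be had: IGF2R, IGFBP2, IRS2, GRB10, GAB1, INPPL1, FOXO3 and FOXO4 as lower and IGFBP7, PIK3CB, PTPN1, IGF2BP1 and IGF2BP3 as higher. AKT1, GSK3A, PHLPP1, FOXO1 and IGFBP6 passed under none. The share of all called genes that kept their call was not counted, so these counts have no background beside them. Of 654 values of the 45 named genes, 594 kept their side of the threshold, 33 lost and 20 gained a call, and 7 reversed. Among the 594, AKT1, AKT2, GSK3A, IGFBP6 and PHLPP1 changed sign under some settings without passing. With the mean of probe sets INSR (-0.38, adjusted p = 0.019) and IGF2BP2 (-0.35, adjusted p = 0.014) were called lower. IGF1R at 0.14 and GRB2 at 0.45 did not pass under that setting, and the GSK3B call was lost at -0.15. Without _x_at and _s_at probe sets INSR stood at -0.98, PDPK1 at 0.14 and AKT2 at -0.40. Each such setting replaces the probe sets read.

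The median log2 difference of the 34 genes moved from -0.17 to -0.079 after median centring, -0.082 with the stricter filter (26 genes measured), -0.34 without _x_at and _s_at probe sets (26 genes) and -0.00032 after centring on all probe sets, the setting chosen after seeing the data. The median of all genes, -0.10 in the main fit, stood at -0.011, -0.012, -0.10 and 0.067 under these settings, in the same order. Higher genes numbered 5 without _x_at and _s_at probe sets and 13 after centring on all probe sets, against 8, and further pathway genes higher numbered 30 under the latter, against 18. Without _x_at and _s_at probe sets 41.6% of the called genes were higher over all genes and 26.3% in the set. After centring on all probe sets these shares were 58.8% and 54.2%. Probe sets of the set were higher in 20 and lower in 29 of 86 kept. There were 10 higher without _x_at and _s_at probe sets and 18 lower with the stricter filter, which both leave fewer probe sets. Genes with opposite calls, 5, numbered 3 after quantile normalization, 3 with no filter, 2 without _x_at and _s_at probe sets and 2 with no intensity trend. Leaving out 1 array each gave between 2 and 5. For these changes in count the cause was not tested. The share of all genes with opposite calls was not counted under these alternatives.

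Leaving out 1 array each gave 7 to 10 higher and 12 to 13 lower genes. With the replicate block, which pairs arrays by number, 9 genes were higher and 15 lower. The labels tie no replicate number to a day or culture, and deviations of same-numbered arrays correlated with r = -0.0039. The block gained a call for PIK3C2A (adjusted p = 0.028) and changed no other call among the genes of the set. Standard errors were widest for the dim genes IGFBP5 and IGFBP6 (both 0.26).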
